A study of Mus musculus with 19 samples.

Results

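The mucins and goblet cell genes of the ocular surface were examined as a set of 10 named genes in bulk RNA-seq of mouse cornea and conjunctiva. The transmembrane mucins were Muc1, Muc4, Muc16 and Muc20, the secreted gel-forming mucins were Muc5ac and Muc5b, and the goblet cell genes were Spdef, Foxa3, Agr2 and Tff1. Genes were chosen by symbol, and 9 of the 10 were measured in both tissues, out of 24552 genes. Muc16 is not analysed here. The libraries came from female C57BL/6J mice, with no transgene or deletion, on 1 of 2 diets, calorie restriction (CR) or free feeding (AL, ad libitum), and the labels give an age of 6 months. All labels also share a mark ending in W that they do not explain. Per the study's methods the diets began at about 6 months and ran for several months, so collection came after that age. There were 5 AL and 5 CR libraries of cornea, and 4 AL and 5 CR libraries of conjunctiva. Corneal epithelium was scraped and the conjunctiva was excised. Replicate numbers are those of the labels, which do not say whether the libraries of one number in both tissues come from one mouse.

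Mucins are large proteins whose serine- and threonine-rich repeats carry dense O-linked sugars. On the ocular surface, transmembrane mucins of the epithelial cells form the glycocalyx, and goblet cells of the conjunctiva secrete the gel-forming mucins into the tear film, whereas the cornea holds no goblet cells. SPDEF and FOXA3 are transcription factors of goblet cell differentiation, AGR2 is an endoplasmic reticulum disulfide isomerase needed for mucin folding, and TFF1 is a trefoil peptide secreted together with mucins.

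The genes lie in 2 mucin pairs and single loci (positions on GRCm38.p6, from RefSeq). Muc5ac (chr7:141788958-141819227, plus strand) is followed by Muc5b (chr7:141839059-141873089, plus strand), with 19831 bases between them. Muc4 (chr16:32735886-32782391, plus strand) and Muc20 (chr16:32777419-32797435, minus strand) converge, and their annotated exons share 627 bases. The strand setting of the counting is not known here, so reads from the shared stretch cannot be assigned to one gene with certainty. Tff1 (chr17:31161395-31165060, minus strand) shares 221 of its 703 exonic bases with the antisense transcript Gm15318, and the same limit holds for it. The others are Muc1 (chr3:89229056-89233381), Spdef (chr17:27714446-27731003), Foxa3 (chr7:19013283-19023539) and Agr2 (chr12:35992925-36004081), none of which overlaps another annotated gene.

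The 250 bases before the start of Muc4 and of Muc20 are shown because both genes varied together in the conjunctiva, and those of Foxa3 and Agr2 because both were high in conjunctiva against cornea. Capitals mark a match on either strand to 1 of 4 motifs: the FOXA core TGTTTAC, the SPDEF core CCGGAT, the E-box CACGTG and the TATA box TATAAA. All are written 5′ to 3′ on the strand of the gene.
Muc4, chr16:32735636-32735885, plus strand: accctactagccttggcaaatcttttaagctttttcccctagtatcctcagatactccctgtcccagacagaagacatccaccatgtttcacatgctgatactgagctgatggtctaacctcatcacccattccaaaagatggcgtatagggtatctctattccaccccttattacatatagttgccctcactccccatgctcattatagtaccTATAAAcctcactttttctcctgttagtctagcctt
Muc20, chr16:32797436-32797685, minus strand: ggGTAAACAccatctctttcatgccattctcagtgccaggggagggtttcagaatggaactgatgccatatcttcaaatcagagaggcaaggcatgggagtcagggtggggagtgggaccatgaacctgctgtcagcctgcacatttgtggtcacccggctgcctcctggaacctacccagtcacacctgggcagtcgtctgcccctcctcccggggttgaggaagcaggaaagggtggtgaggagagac
Foxa3, chr7:19023540-19023789, minus strand: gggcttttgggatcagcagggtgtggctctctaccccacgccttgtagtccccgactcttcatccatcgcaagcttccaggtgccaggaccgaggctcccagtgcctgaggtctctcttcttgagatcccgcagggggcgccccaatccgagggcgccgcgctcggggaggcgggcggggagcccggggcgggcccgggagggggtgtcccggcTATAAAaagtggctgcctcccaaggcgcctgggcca
Agr2, chr12:35992675-35992924, plus strand: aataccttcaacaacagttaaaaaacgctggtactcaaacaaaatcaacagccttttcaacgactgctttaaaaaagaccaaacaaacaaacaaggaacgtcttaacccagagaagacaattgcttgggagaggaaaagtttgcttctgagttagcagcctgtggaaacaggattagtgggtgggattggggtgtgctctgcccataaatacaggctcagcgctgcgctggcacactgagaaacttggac
Of the 6 promoters matched, Muc20 held the FOXA core, at base -248 from the start, as did 3.17% of the 32851 mouse promoters of the same length. Muc1, Muc4 and Foxa3 held the TATA box, found in 12.4% of promoters, and in Muc4 and Foxa3 it began at base -36. The Spdef entry lies before an inner start, within the span of the gene given above, and is not shown. None of the 6 held the SPDEF core or the E-box, found in 4.94% and 6.02% of promoters. These are letter matches only.

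The libraries held 10354377 to 14681466 counted reads, and 33.6% to 47.6% of genes were at 0. The labelled tissues were checked with Krt12, the corneal keratin. It lay between 15024 and 29639 reads per 1000000 counted reads (RPM) in cornea and between 36.2 and 439 in conjunctiva. The summed level of 5 conjunctival epithelium markers did not mark the conjunctiva. It was 8807 to 12238 RPM in cornea AL and 7815 to 11754 in cornea CR. In conjunctiva it was 4882 to 8798 RPM in AL and 4319 to 8503 in CR. Markers of other cells moved with diet in the conjunctiva. The summed level of 5 immune markers was 154 to 234 RPM in AL and 89.3 to 126 in CR, and that of 5 fibroblast markers was 2827 to 4444 in AL and 1776 to 3570 in CR. The sum of 10 lacrimal gland markers was 28.5 to 38.1 RPM in conjunctiva AL and 54.8, 81.7, 76.2, 28.5 and 66.5 in CR 1 to 5. CR 4 lay at the AL level. Most of that sum was Ltf, lactoferrin, with means of 26.6 RPM in AL and 60.8 in CR, while Dcpp1 and Dcpp2 were at 0 in every conjunctiva library. Dcpp3 went from a mean of 0 to 0.193 normalized counts. Obp1a, Obp1b, Car6, Lcn11, Pip and Bhlha15, all at low counts, had lower means in CR. The higher sum in CR was thus that of Ltf, not of the lacrimal markers as a set. Meibomian gland markers stood at 803 RPM in conjunctiva CR 5 against 27.7 to 58.9 in the other conjunctiva libraries. In cornea AL 1, lacrimal gland markers reached 2511 RPM against 20.9 to 92.7 in the other cornea libraries. The part of these differences in the mucin values was not tested. In bulk tissue, fewer goblet cells and less RNA per goblet cell cannot be told apart.

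Where the genes were expressed is shown by RPM, a description with no test because each tissue was scaled in its own table. All 6 goblet cell and secreted mucin genes, and Muc1, had every conjunctiva library above every cornea library. Over the 14278 genes past the filter in either tissue, 18.1% had that order.

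**Figure D1:**
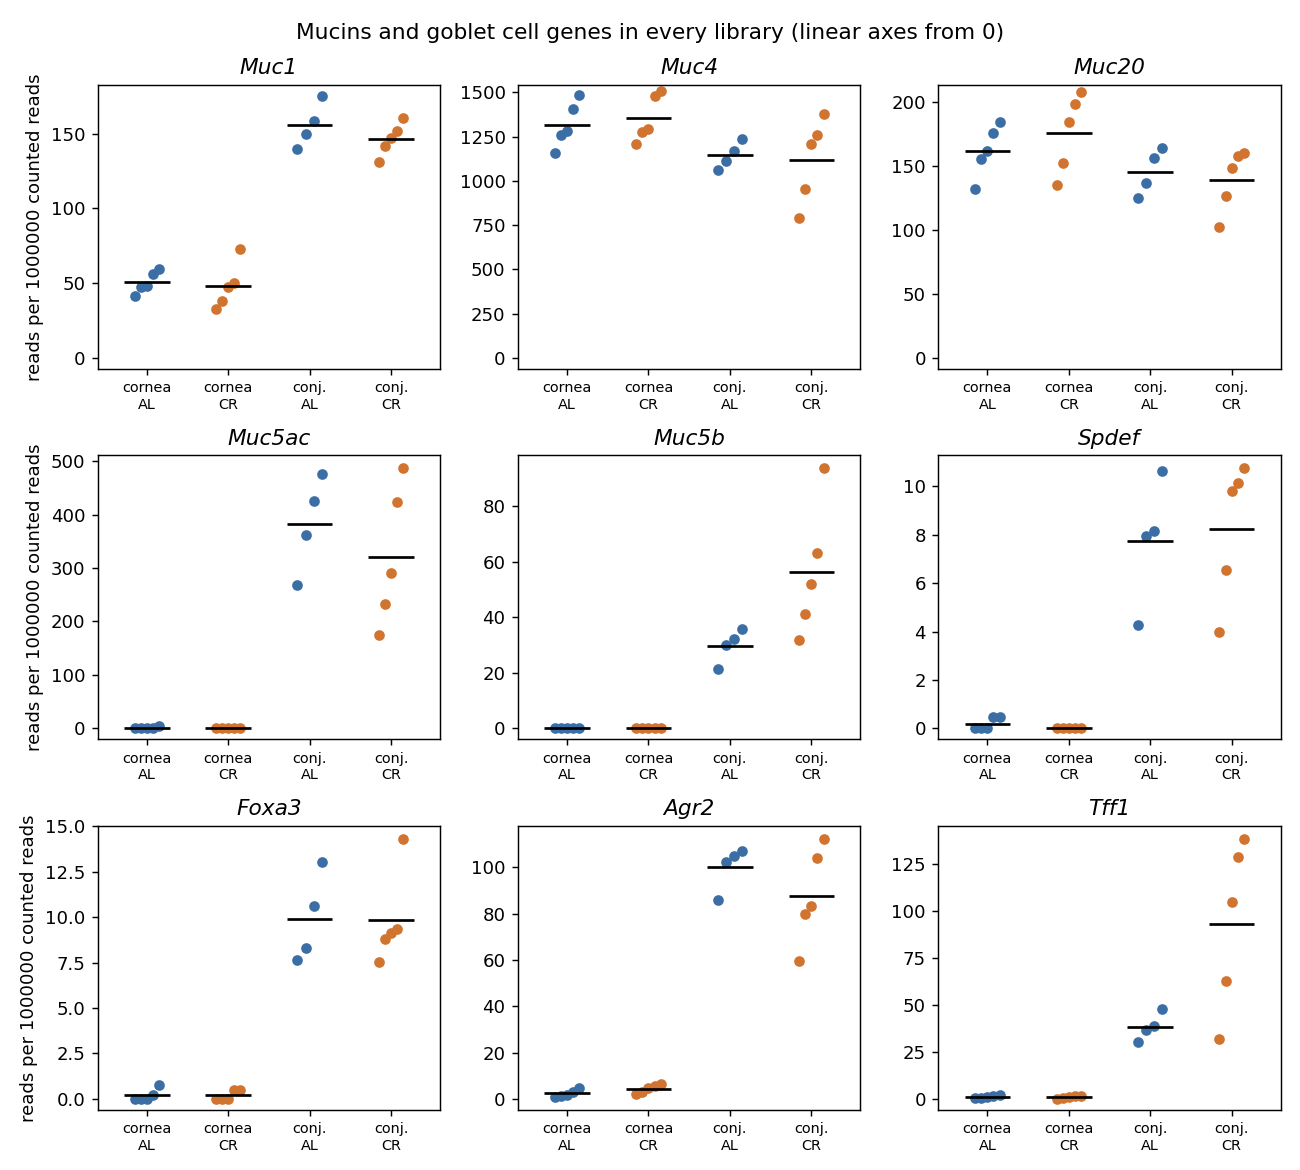
Reads per 1000000 counted reads of the 9 genes in each library, on linear axes, for cornea AL, cornea CR, conjunctiva AL and conjunctiva CR, with points for libraries and bars for group means. Muc4 and Muc20 are at like levels in both tissues, whereas Muc5ac, Muc5b, Spdef, Foxa3, Agr2 and Tff1 are near 0 in cornea.

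Muc4 and Muc20 did not separate the tissues. Muc4, a membrane mucin of stratified ocular epithelium, ranged from 1155 to 1507 RPM in cornea and from 793 to 1379 in conjunctiva. Muc20 ranged from 132 to 208 in cornea and from 103 to 164 in conjunctiva. Muc1, by contrast, had 32.9 to 72.9 RPM in cornea and 131 to 175 in conjunctiva, a 3.05-fold higher mean.

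The gel-forming mucins were almost confined to conjunctiva among these libraries. Muc5ac, the main secreted mucin of conjunctival goblet cells, had a median of 362 RPM in conjunctiva (174 to 486) and 0.308 in cornea. The 10 cornea libraries held 77 Muc5ac reads between them, and 42 of these were in cornea AL 5. Muc5b summed to 5 reads over all cornea libraries and 4972 over the 9 conjunctiva libraries. Spdef had 10 reads in cornea, 5 in each of AL 1 and AL 2, and Foxa3 had 22. Agr2 and Tff1 were measurable in cornea, with means of 3.38 and 0.963 RPM against 93.2 and 68.8 in conjunctiva, or 27.6-fold and 71.4-fold higher.

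To ask whether CR changed these genes, CR and AL libraries were compared within each tissue by limma, on log2 of the normalized count plus 1. None of the 5 genes past the filter (a mean of at least 10 normalized counts) was called changed in cornea, at an adjusted p under 0.05 and a fold over 1.5, where 1.22% of 12278 genes were called. None of the 9 genes was called in conjunctiva, where 0.359% of 13929 genes were called. With voom on the recovered reads the counts were also 0 and 0. At an unadjusted p under 0.05, 1 gene was higher under CR in cornea (Agr2, background 8.52%) and 2 were higher in conjunctiva (Muc5b and Tff1, background 4.53%), and none was lower.

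**Figure D2:**
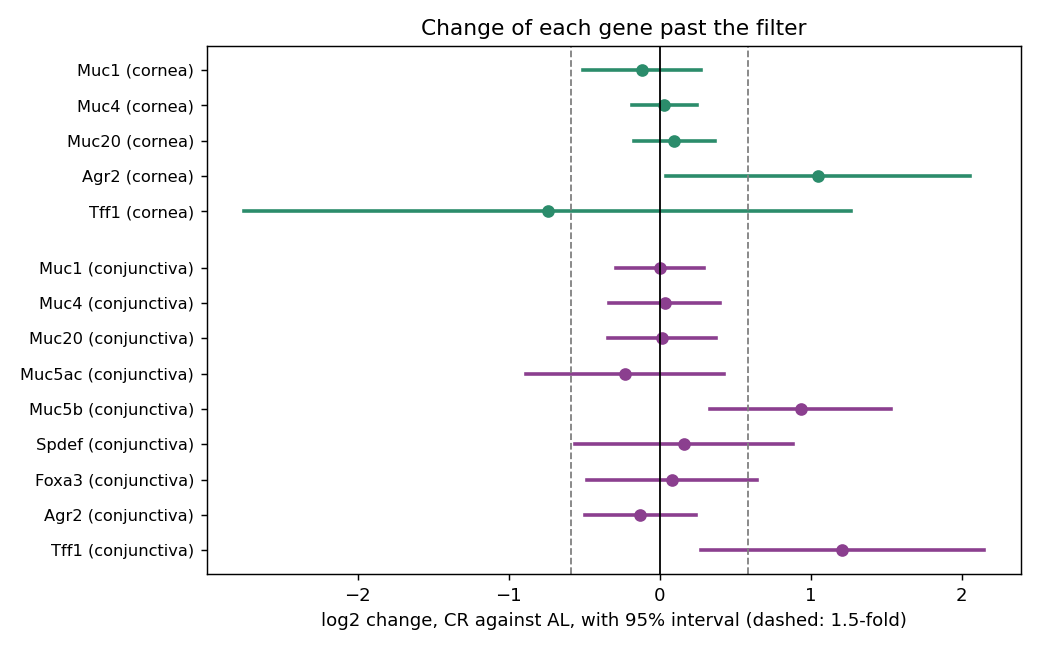
Log2 change of CR against AL for each gene past the filter in cornea (5 genes) and conjunctiva (9 genes), with points for the limma estimate, lines for the 95% interval and dashed lines at a 1.5-fold change. The 3 transmembrane mucins have intervals inside the dashed lines in both tissues, and the intervals of Muc5b and Tff1 in conjunctiva and of Agr2 in cornea lie above 0.

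The transmembrane mucins differed between diets by less than 1.5-fold, estimates and 95% intervals alike. In conjunctiva, Muc4 stood at 14339, 13378, 12461 and 13965 normalized counts in AL 1, 3, 4 and 5, and at 15186, 17219, 9154, 12785 and 16422 in CR 1 to 5. CR 3 was the lowest and CR 2 the highest of the 9, so the CR libraries spread on both sides of all AL libraries. The log2 change was 0.03 ± 0.18 (SE), with a 95% interval from -0.34 to 0.40 that stays inside a 1.5-fold change (0.58 on the log2 scale).
In cornea, Muc4 stood at 13612, 17357, 15870, 14894 and 14589 normalized counts in AL 1 to 5 and at 14749, 14002, 14212, 17041 and 18034 in CR 1, 2, 3, 4 and 7. The groups overlapped, and the log2 change was 0.03 ± 0.10, with an interval from -0.19 to 0.25.

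Muc1 and Muc20 gave the same picture. Muc1, a small membrane mucin with a signalling tail, had 1842 ± 193 normalized counts in conjunctiva AL (mean ± SD, n = 4) and 1847 ± 202 in CR (n = 5), and the interval of its log2 change ran from -0.29 to 0.29. In cornea it had 585 ± 78.9 in AL and 558 ± 193 in CR (n = 5 each), with an interval from -0.51 to 0.27. Muc20 had 1723 ± 213 and 1763 ± 361 in conjunctiva, with an interval from -0.34 to 0.37, and 1879 ± 222 and 2022 ± 349 in cornea, with an interval from -0.17 to 0.37. All of these intervals lay inside a 1.5-fold change, and the sign of each estimate, all within 0.12 of 0, turned under at least 1 other setting.

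Neither secreted mucin was called changed. Muc5ac in conjunctiva stood at 5530, 3221, 4241 and 5067 normalized counts in AL 1, 3, 4 and 5, and at 5109, 3620, 2683, 2328 and 6593 in CR 1 to 5. The highest and the 2 lowest libraries were all CR, and the groups overlapped. The log2 change was -0.23 ± 0.30, adjusted p = 0.861 by limma, with an interval from -0.89 to 0.43 that does not exclude a 1.5-fold fall.

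Muc5b, the other gel-forming mucin, which is prominent in airway glands, stood at 414, 387, 353 and 254 normalized counts in AL and at 763, 513, 601, 425 and 1269 in CR 1 to 5. Every CR library was above every AL library, an order that 1.92% of the genes tested in conjunctiva had. The gap between the nearest libraries was small, 425 in CR 4 against 414 in AL 1. The mean was 352 ± 69.8 in AL and 714 ± 334 in CR, a log2 change of 0.93 ± 0.28 with an interval from 0.33 to 1.53. The difference did not pass the correction over all genes (adjusted p = 0.244 by limma, unadjusted p = 0.00510). The exact two-sided permutation test gave p = 0.0159. Without CR 5, the library with meibomian gland markers, the log2 change was 0.70 (adjusted p = 0.174 by limma).

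A ratio of both mucins within a library does not depend on its depth or scaling. The share of Muc5b in the reads of Muc5ac plus Muc5b, chosen after the values above were seen, was 6.97%, 10.7%, 7.68% and 4.78% in conjunctiva AL 1, 3, 4 and 5, and 13.0%, 12.4%, 18.3%, 15.4% and 16.1% in CR 1 to 5. Every CR share was above every AL share. The means were 7.54% ± 2.46 (SD, n = 4) and 15.1% ± 2.40 (n = 5), and are given as a description, with no test, because the measure was picked on these values. The libraries nearest to each other were AL 3 (95% Wilson interval 9.71% to 11.8%) and CR 2 (11.5% to 13.4%), whose counting intervals overlap. Leaving out each library in turn, the difference in means stayed between 6.60 and 8.58 percentage points.

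**Figure D3:**
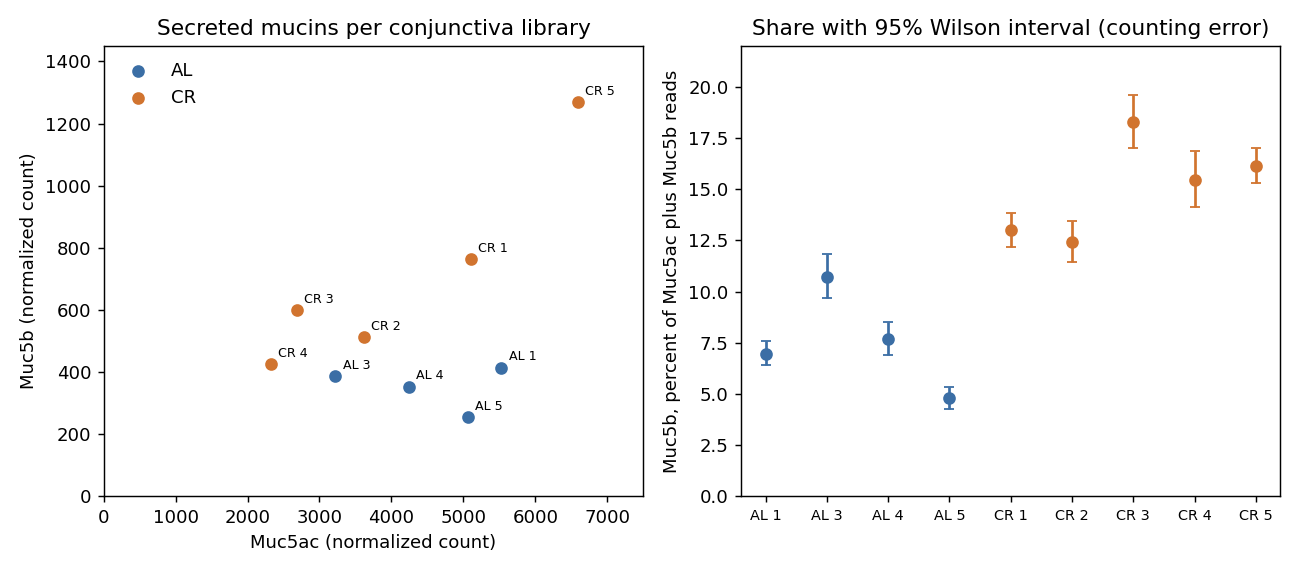
Left, normalized counts of Muc5b against Muc5ac for each conjunctiva library. Right, the share of Muc5b in the reads of both mucins with its 95% Wilson interval (counting error only). The 5 CR libraries lie between 12.4% and 18.3% and the 4 AL libraries between 4.78% and 10.7%, while Muc5ac itself overlaps between diets.

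The transcription factors of the goblet program overlapped between diets, and were measured with less precision. Spdef stood at 92.5, 128, 95.7 and 50.9 normalized counts in conjunctiva AL and at 130, 127, 75.3, 53.3 and 133 in CR, and Foxa3 at 151, 99.9, 89.3 and 126 in AL and at 110, 94.2, 108, 118 and 194 in CR. Both overlapped. Their log2 changes were 0.16 ± 0.34 and 0.08 ± 0.27, with intervals from -0.56 to 0.88 and from -0.48 to 0.64, which exclude a 1.5-fold fall but not a rise of that size.

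Agr2 stood at 1244, 1262, 1005 and 1218 normalized counts in conjunctiva AL and at 1355, 998, 960, 794 and 1408 in CR. The CR libraries fell on both sides of all AL libraries, and the log2 change of -0.13 ± 0.17 had an interval from -0.49 to 0.24, inside a 1.5-fold change. In cornea, at low counts, Agr2 stood at 13.2, 37.1, 10.9, 17.7 and 56.6 in AL 1 to 5 and at 64.6, 25.4, 34.1, 54.2 and 77.1 in CR 1, 2, 3, 4 and 7. Only CR 1 and CR 7 exceeded all AL libraries. The log2 change in cornea was 1.05 ± 0.48 (adjusted p = 0.259 by limma), and the exact permutation test gave an unadjusted p = 0.0952. The other members past the filter in cornea had p of at least 0.476 by this permutation test.

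Tff1 showed the widest spread of the goblet cell genes in CR conjunctiva. It stood at 556, 364, 428 and 459 normalized counts in AL 1, 3, 4 and 5, and at 1666, 1308, 721, 428 and 1740 in CR 1 to 5. CR 4 was at the AL level, and the other 4 CR libraries were above all AL libraries. The mean was 452 ± 80.2 in AL and 1173 ± 579 in CR, a log2 change of 1.21 ± 0.41 with an interval from 0.27 to 2.14 (adjusted p = 0.384 by limma). The exact permutation test gave an unadjusted p = 0.0476. Whether it was called rested on 1 library: without CR 4 the log2 change was 1.52 and passed the threshold (adjusted p = 0.0264 by limma), and without CR 5 it was 1.02 (adjusted p = 0.480).
In cornea Tff1 had 12.3 ± 7.28 normalized counts in AL and 10.1 ± 8.37 in CR, near the floor of 3 reads, and its log2 change of -0.74 ± 0.96 was not resolved. Muc5ac, Muc5b, Spdef and Foxa3 were under the filter in cornea and were not tested there. Their highest cornea value was 43.3 normalized counts of Muc5ac in AL 5.

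Whether CR acted differently in the tissues was tested on the 5 genes past the filter in both, as the log2 change in conjunctiva less that in cornea. None passed an adjusted p of 0.05, which 0.0168% of 11929 genes did. The difference was -1.18 ± 0.51 for Agr2 (adjusted p = 0.642 from both limma fits, unadjusted p = 0.0308) and 1.95 ± 1.04 for Tff1 (adjusted p = 0.689 from both limma fits). For Muc1, Muc4 and Muc20 it lay between -0.08 and 0.12.

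Across the 9 conjunctiva libraries all 36 pairs of genes had a positive Pearson r, with a median of 0.480 (0.00191 to 0.914), and 2 correlated at an adjusted permutation p under 0.05. Muc4 and Muc20, whose exons overlap, had Pearson r = 0.914 (n = 9, permutation p = 0.00126, adjusted p = 0.0446), Spearman rho = 0.817 (permutation p = 0.0108, adjusted p = 0.166), r = 0.909 without the 2 libraries farthest from the Muc4 median, and r = 0.914 within diet. In the 10 cornea libraries the same pair had r = 0.539 (permutation p = 0.109). The other pair was Muc5b and Tff1 (n = 9, r = 0.842, permutation p = 0.00248, adjusted p = 0.0446, and rho = 0.833, permutation p = 0.00827, adjusted p = 0.166). Its r was 0.606 without the 2 libraries farthest from the Muc5b median. Muc5b separates the diets, and within diet the pair had r = 0.677 (adjusted permutation p = 0.151) and r = 0.181 without the 2 libraries, so the relation did not hold without them. No background over all gene pairs is given for the 36 positive pairs. Within diet, 5 fibroblast markers had a median r of -0.50 with Muc5ac and -0.69 with Muc4. For 5 conjunctival epithelium markers it was 0.33 and 0.49, and for 7 corneal epithelium markers 0.31 and 0.26. For 7 meibomian gland markers it was 0.69 and 0.39, and CR 5, where their sum was highest, was also the highest Muc5ac library. For all other genes past the filter it was -0.01 and -0.03. The part of tissue makeup in these correlations was not tested.

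Within diet, Muc5ac and Tff1 were correlated in conjunctiva (n = 9, r = 0.912, adjusted permutation p = 0.0191, and rho = 0.950, adjusted permutation p = 0.0127). Across all 9 libraries, without centring, r was 0.455 (permutation p = 0.214, adjusted p = 0.384). Muc5ac and Muc5b had r = 0.704 within diet (adjusted permutation p = 0.132) and 0.299 without centring (adjusted permutation p = 0.587). Muc5ac and Agr2 had r = 0.831 and rho = 0.800 (n = 9, permutation p = 0.00642 and 0.0138, adjusted p = 0.0771 and 0.166), with r = 0.586 without the 2 libraries farthest from the Muc5ac median. Of 10 pairs in cornea, none passed, Muc1 and Muc4 coming nearest (r = 0.749, permutation p = 0.0106, adjusted p = 0.106, and rho = 0.661, adjusted permutation p = 0.143, n = 10). Within diet 2 of the 10 pairs passed in cornea by Pearson r, and neither passed by Spearman rho. Muc1 with Muc4 had r = 0.788 (adjusted permutation p = 0.0238) and rho = 0.770 (adjusted permutation p = 0.0744). Agr2 with Tff1 had r = 0.805 (adjusted permutation p = 0.0238) and rho = 0.745 (adjusted permutation p = 0.0744). The within-diet permutations moved values across diets without allowing for the group means removed, so their p-values may be too low.

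The genes most like Muc5ac across the 9 conjunctiva libraries, by Pearson r within diet among 13920 other genes, were Tmem33 (r = 0.986), Lman1l (0.977), Srd5a3 (0.973), Golm1 (0.972) and Pign (0.966). Tmem33 encodes a membrane protein of the endoplasmic reticulum, Golm1 one of the Golgi, and Srd5a3 makes dolichol for N-glycosylation. Lman1l ranged from 87.1 to 273 normalized counts and Golm1 from 832 to 1411. Most like Muc4 in conjunctiva were Prss27 (r = 0.975), Cask (0.973), Scel (0.968), Slc17a5 (0.961) and Ppp2r2b (0.951). In the 10 cornea libraries they were Grhl3 (0.945), Liph (0.930), Tyro3 (0.927), Bambi (0.923) and Defb14 (0.915), and no gene was on both Muc4 lists. With 9 or 10 libraries that share depth and tissue makeup, high values of r arise by number among all genes ranked, and they are given as a description.

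Other genes of mucin biology were followed as lists of known function, each set beside the median over every gene past the filter, a log2 change of -0.03 in cornea and -0.02 in conjunctiva. The other mucins had 6 of 11 measured genes past the filter in each tissue, with none called and medians of -0.36 in cornea and -0.16 in conjunctiva. Mucl2, a small secreted mucin-like gene, had 23.0 to 22949 normalized counts in cornea AL and 0 to 10.4 in CR, and its highest value was in the AL 1 library with lacrimal gland markers (log2 change -7.60, adjusted p = 0.0720 by limma). In conjunctiva it had 8.84 to 64.6 in AL and 0 to 9.22 in CR, with an adjusted p of 0.118 by limma. Cd164, a sialomucin, had log2 changes of 0.20 and -0.12 in cornea and conjunctiva. Ovgp1 had 0.84 in cornea and Emcn -0.28 in conjunctiva. Muc6 and Prol1, named after their values were seen, had at most 3 reads in every library of both tissues.

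Of 23 other goblet and secretory genes, 13 passed the filter in conjunctiva and none was called, with a median of -0.05. Of the 13, 4 were higher and 9 lower, beside 6688 higher and 7241 lower among all genes past the filter. Krt18, a keratin of simple epithelium, had 458 ± 99.6 normalized counts in AL and 732 ± 171 in CR, a log2 change of 0.67 ± 0.19 (adjusted p = 0.191 by limma). Fcgbp, a mucus protein, had a log2 change of -0.62 ± 0.23 and Klf4, a transcription factor of barrier epithelium and goblet cells, one of 0.36 ± 0.16 (adjusted p = 0.391 and 0.473 by limma). Tff3 and Zg16, partners of mucins in intestinal goblet cells, and Reg4 had at most 3 reads in every conjunctiva library, and are named after their values were seen. In cornea 11 genes passed the filter with a median of 0.24 and none was called. The smallest p there belonged to Scin (0.30), Klf4 (0.23) and Krt8 (0.64), with adjusted p of 0.187, 0.197 and 0.281 by limma.

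The enzymes that build mucin O-glycans had 19 of 31 genes past the filter in cornea, with 1 called lower, none called higher and a median of -0.17. The called gene was Galnt18, of the family that attaches the first sugar, at 1903 ± 231 normalized counts in AL and 1157 ± 308 in CR. It fell by 0.75 ± 0.15 on the log2 scale (adjusted p = 0.0199 by limma), with 4 of 5 CR libraries below all AL libraries. In conjunctiva 25 passed the filter, none was called and the median was -0.13. There Galnt18 had 903 ± 256 in AL and 558 ± 83.2 in CR, with all 5 CR libraries below all AL libraries, a log2 change of -0.67 ± 0.18 and an adjusted p of 0.161 by limma. St3gal1, which caps core 1 glycans with sialic acid, had 815 ± 72.6 and 510 ± 99.5 (log2 change -0.69 ± 0.16, adjusted p = 0.0767 by limma), and C1galt1c1, the chaperone of core 1 synthase, had a log2 change of -0.53 ± 0.25.

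Receptors and exocytosis proteins of secretion had 13 of 16 genes past the filter in cornea, with 1 called lower, and 14 in conjunctiva with none called. The medians were 0.00 in both tissues. The called gene was P2rx7, an ATP-gated channel that drives secretion by goblet cells, at 230 ± 52.6 normalized counts in cornea AL and 105 ± 43.8 in CR. It fell by 1.18 ± 0.24 on the log2 scale (adjusted p = 0.0195 by limma). In conjunctiva the log2 changes were -0.38 for Marcks, a substrate of protein kinase C in exocytosis, 0.46 for P2ry2, a nucleotide receptor, and -1.40 for Unc13d, a priming factor, with adjusted p of 0.338, 0.423 and 0.471 by limma.

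Cytokine genes that control goblet cells had 8 of 12 past the filter in each tissue and none called, with medians of -0.17 in cornea and -0.26 in conjunctiva, and Il4, Ifng and Il17a, named after their values were seen, had at most 3 reads in every library. In conjunctiva 7 of the 8 were lower, beside 7241 of all 13929 genes past the filter. The smallest p belonged to Ifngr1 (log2 change -0.41, adjusted p = 0.359), Il4ra (-1.11, adjusted p = 0.365) and Tgfb2 (-0.39, adjusted p = 0.470 by limma). The part of the lower immune and fibroblast markers given above was not tested. In cornea the values were 0.71 for Tgfbr2, -0.98 for Tgfb2 and -0.57 for Il4ra. Partners of the glycocalyx had 9 of 11 past the filter in cornea and 10 in conjunctiva, with none called and medians of 0.00 and 0.03. Adam17, a sheddase of membrane mucins, had an adjusted p of 0.0409 by limma in cornea, with a log2 change of -0.50 ± 0.12 that is under the fold limit, and -0.36 ± 0.16 in conjunctiva. Mmp9, a gelatinase of the ocular surface, had 482 ± 131 in conjunctiva AL and 224 ± 70.0 in CR (log2 change -1.12 ± 0.25, adjusted p = 0.0767 by limma). Msn, which links membrane proteins to actin, had -0.62 in cornea and -0.37 in conjunctiva, and Rdx, of the same family, had -0.17 in cornea.

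**Figure D4:**
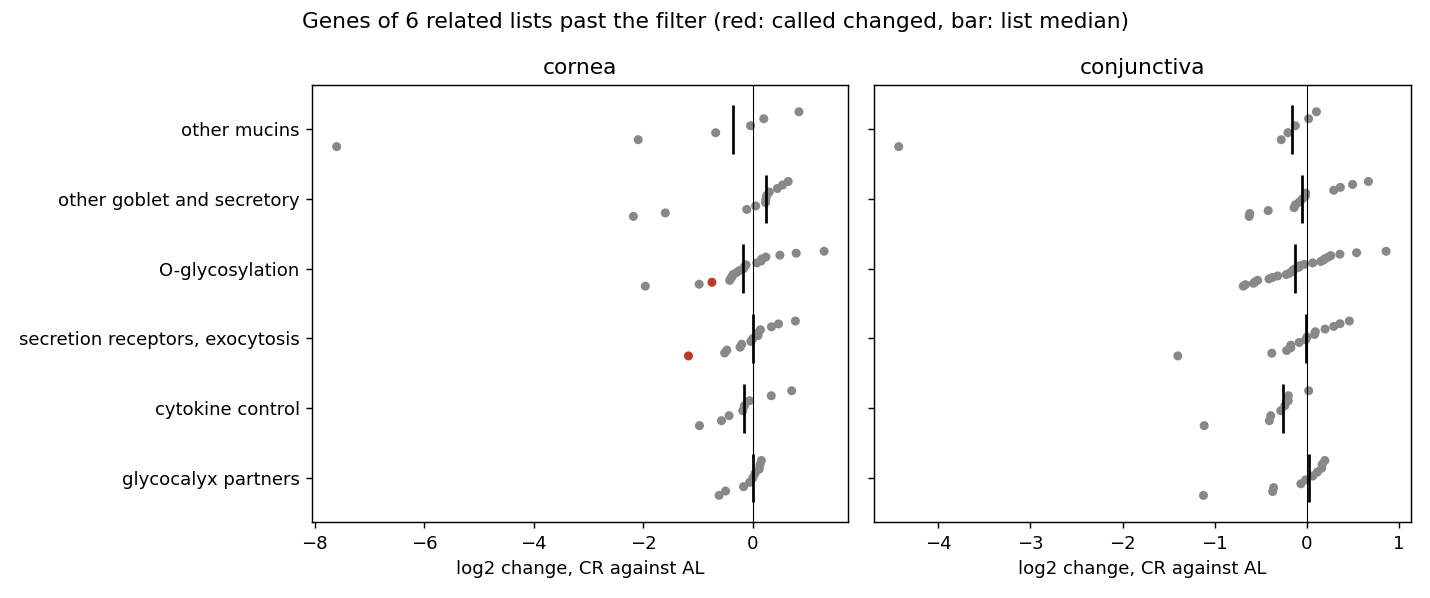
Log2 change of CR against AL for the genes of 6 lists past the filter, in cornea and conjunctiva, with 1 point per gene, red where called and a bar at the list median. Galnt18 and P2rx7 in cornea are the called genes, and the leftmost point of the other mucins is Mucl2.

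Markers of other cell types were counted in the same way. In conjunctiva, 1 airway and duct marker was called higher: Sec14l3, at 64.1 ± 9.43 normalized counts in AL and 220 ± 73.6 in CR (adjusted p = 0.00639 by limma), while Bpifb1, named after its values were seen, was at 0 in all conjunctiva libraries. Col1a1, a fibroblast collagen, fell by 1.37 (adjusted p = 0.00592 by limma) and Cd74, of antigen-presenting cells, fell by 0.86 on the log2 scale (adjusted p = 0.00742 by limma). Of the lacrimal markers in conjunctiva 2 passed the filter and none was called: Ltf had a log2 change of 1.20 ± 0.25 (adjusted p = 0.0682 by limma) and Obp1a, at 30.9 normalized counts in AL and 0.195 in CR, had one of -4.74 (adjusted p = 0.0767 by limma). These moved with the same diet contrast as Muc5b and Tff1, and their part in it was not tested. In cornea Obp1b, a lacrimal odorant-binding protein, was called lower, with every CR library at 0 reads.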

How the data were processed

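RNA-seq of mouse cornea and conjunctiva was analysed from the 19 libraries of the ad libitum and calorie-restricted animals. Per the study's methods, the authors trimmed reads with cutadapt, aligned them to mm10 with STAR, counted them with HTSeq and scaled the counts with DESeq2 on the ROSALIND platform. The submitters' processing notes name GRCm39, and the strand setting of the counting is not given in the sources used here. The labels name a stranded poly(A) kit and the methods an oligo(dT)-primed kit, so levels are not ranked between genes. The deposited values are log2 of the normalized count plus 1, and the authors scaled each tissue in its own table. Counts of reads were recovered from them and 100% of values up to 2000 reads were whole within 0.1 read. Of 24557 features per table, 5 repeated symbols were left out and 483 carry no gene identifier. One member, Muc16, is not analysed here.

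Genes whose mean in a tissue reached 10 normalized counts were tested with limma 3.58.1 (trend, robust) in R 4.3.3, CR against AL, on the log2 values with their pseudocount of 1, and p-values were adjusted by Benjamini-Hochberg over all genes tested. A gene was called changed at an adjusted p under 0.05 and a fold over 1.5. Single genes were tested by exact two-sided permutation of the libraries, with p-values not adjusted over genes. Correlations were tested by two-sided permutation with Python 3 tools, over all 362880 orders for 9 libraries and 100000 draws for 10. The difference between tissues was tested on the 2 log2 changes with their errors, taken as independent between the tissues. Reads per 1000000 counted reads served for levels across tissues, with no test. The counted reads ran from 10354377 to 14681466 per library, and a floor of 3 reads equals 2.27 to 3.37 normalized counts. Shares' intervals and floors cover counting error only. The labels number the libraries without stating that each is 1 mouse, so p-values measure the spread between these libraries.

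The members and the gene lists were chosen with earlier results of these data known. All members are named. Of each of the 6 related lists every called gene is named, and otherwise the 3 tested genes with the smallest p in a tissue. Genes of similar pattern are the 5 others with the highest Pearson r on log2 values centred within diet. Of the cell type markers, the called genes and those that carry a marker sum are named. Other features named outside this rule are said to be so. Promoters and positions are from RefSeq (GRCm38.p6), and overlaps from GENCODE vM21 on the same genome. Promoters of 6 of the 9 genes were matched. The results were recomputed with a pseudocount of 0.5 or 10, without the filter, with a minimum mean of 50, with quantile and trimmed-mean scaling, with array weights, voom on recovered reads, the share of genes at 0 as covariate, a replicate block, and each library left out in turn.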

Additional observations from a re-analysis of the deposited data

Results flagged for a closer look

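Agr2 in conjunctiva AL 4 stood apart from its group, at 1005 normalized counts against 1218 to 1262 in the other 3 AL libraries. On the log2 scale the gap was 0.844 of the whole range of the group. Of 36 sample groups examined (9 genes in 4 groups), 1 was singled out in this way, and chance flags about 1 in 20. None of the 5 members tested in both tissues differed in its CR effect past the correction.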

How the results depend on the processing

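No member was called in cornea under any alternative fit, and 0 to 1 was called in conjunctiva when each library was left out in turn (Tff1, without CR 4). At an unadjusted p under 0.05 the counts were 1 in cornea and 2 in conjunctiva. In cornea 2 pairs correlated by Pearson r when centred within diet, though not by Spearman rho, against none without centring. Log2 changes near 0 turned sign, as did that of Tff1 in cornea, from -0.74 in the main fit to 0.34 with quantile scaling. Quantile scaling also gave -0.088 for Muc1, -0.086 for Muc4 and -0.086 for Muc20 in conjunctiva. Trimmed-mean scaling gave -0.0013 for Muc1 in conjunctiva. Array weights gave -0.0060 for Muc4 in cornea and -0.089 for Foxa3 in conjunctiva. The share of genes at 0 as covariate gave -0.046, -0.13, -0.18 and -0.14 for Muc1, Muc4, Muc20 and Foxa3 in conjunctiva. With libraries left out in turn, log2 changes in cornea ran from -0.30 to 0.0019 for Muc1 and from -0.025 to 0.077 for Muc4. In conjunctiva they ran from -0.044 to 0.073 for Muc1, from -0.049 to 0.18 for Muc4 and from -0.064 to 0.15 for Muc20. Those of Spdef ran there from -0.096 to 0.37 and those of Foxa3 from -0.091 to 0.21. The cause was not tested. Muc5b in conjunctiva kept its sign, from 0.70 to 1.09, as did Tff1 in conjunctiva, from 1.02 to 1.52.

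The AL and CR libraries of one number in a tissue were not treated as pairs, since their deviations from the diet means correlated between -0.30 and 0.29. Whether same-numbered libraries of cornea and conjunctiva deviate together was not checked. With the replicate block, 0 members were called in either tissue, all genes called numbered 46 in cornea and 10 in conjunctiva, Muc5b in conjunctiva had 1.02 and Tff1 1.12, and signs turned for Muc4 (-0.040) and Muc20 (-0.010) in cornea and for Muc1 (-0.029), Muc4 (-0.049) and Muc20 (-0.012) in conjunctiva. Taking the tissue difference between libraries of the same diet and number, over 8 such pairs, gave -0.054 for Muc4. Over all settings the genes called ran from 46 to 705 in cornea and from 10 to 149 in conjunctiva. With 4 or 5 libraries a group, a 1.5-fold rise of Spdef or Foxa3 and a 1.5-fold fall of Muc5ac in conjunctiva were not excluded. In cornea Spdef, Foxa3 and Tff1 were at or near the read floor, whereas Agr2 had 10 to 55 reads in AL and 27 to 83 in CR.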
